A study of Mus musculus with 48 samples.

Results

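The 10 genes described here, Eef1a1, Eef1b2, Eef1d, Eef1g, Eef2, Rack1, Tpt1, Pabpc1, Naca and Npm1, encode mRNAs reported to begin with a 5′ terminal oligopyrimidine (TOP) tract, and none of them encodes a ribosomal protein. They were taken by symbol from the 47643 genes that every count file lists, and each symbol matched 1 Ensembl gene. They were chosen by earlier results on the comparison of the same libraries described below. Their difference between the compartments is therefore a description and supports nothing. How many of them lay past a threshold is printed beside the share of all genes, and nothing is read from it.

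The RNA came from polysomes of the mouse dorsal hippocampus, isolated by translating ribosome affinity purification (TRAP), in which an antibody pulls down a tagged ribosome with the mRNA bound to it. All animals carried the transgene Aldh1l1:L10a-eGFP, strain Tg(Aldh1l1-eGFP/Rpl10a) JD130Htz, in which the Aldh1l1 promoter, active mainly in astrocytes, drives the ribosomal protein L10a fused to green fluorescent protein. The groups were the whole astrocyte (Astro) and its fine branches at synapses, the perisynaptic processes (PAP). The sample titles carry 3 codes, C1 to C3, each read here as 1 animal that gave 1 library of each compartment. Each library was deposited as 8 technical replicates, and the 48 samples were summed to 6 libraries. No treatment, age or sex is named in the labels, and a precipitation without the tag was not analysed here.

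TOP mRNAs carry a cytosine at the cap followed by an unbroken run of pyrimidines. Their translation is switched together by the kinase complex mTORC1, largely through the cap-binding protein Larp1, so that the cell adjusts its production of ribosomes and translation factors as a unit. The family holds the ribosomal protein genes and a smaller group of translation genes, to which these 10 belong. Eef1a1 encodes the factor eEF1A, which brings aminoacyl-tRNA to the ribosome. Eef1b2, Eef1d and Eef1g encode the beta, delta and gamma subunits of eEF1B, the complex that recharges eEF1A with GTP. Eef2 encodes the factor that moves the ribosome along the mRNA. Rack1 encodes a scaffold protein of the small ribosomal subunit, and Pabpc1 the cytoplasmic poly(A)-binding protein. Naca encodes the alpha subunit of the nascent polypeptide-associated complex at the ribosome exit, Npm1 the nucleolar chaperone nucleophosmin, and Tpt1 the translationally controlled tumour protein.

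The annotated starts of 6 of the 10 genes were read from the RefSeq promoter table of GRCm38.p6, because the tract that names the family lies there. The table gave no entry for Eef1d, Eef1g, Pabpc1 or Npm1. Each line shows 30 bases, 5′ to 3′ on the gene's own strand, from 10 bases before the annotated start to 20 bases from it onward. Capitals mark a run made of a C followed by at least 4 letters that are C or T.
Eef1a1: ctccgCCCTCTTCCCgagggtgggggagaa
Rack1: gccgCTCTTTCTTTTTCTCCacagggtcgt
Naca: tcgttCTCTTaaagaggaaacccggacgcc
Eef2: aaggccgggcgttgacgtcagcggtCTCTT
Eef1b2: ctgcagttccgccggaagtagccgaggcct
Tpt1: cgctgacgacagttccgggggagccgcgga

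The windows lie at chr9:78481705-78481734 on the minus strand for Eef1a1 and, on the plus strand, at chr11:48800350-48800379 for Rack1, chr10:128035336-128035365 for Naca, chr10:81176621-81176650 for Eef2, chr1:63176821-63176850 for Eef1b2 and chr14:75845246-75845275 for Tpt1. The run of Rack1 spanned 16 bases and that of Eef1a1 10 bases, and both crossed the annotated start. Naca held a run of 5 bases that began 5 bases before the start and ended just before it, outside the RNA by this annotation. In Eef2 a run began only at base 16 and was cut after 5 bases by the end of the window. The RefSeq start of Naca lies upstream of the Ensembl gene whose counts are given below, and its window falls outside that gene. In these windows Eef1b2 and Tpt1 held no such run. A C followed by at least 4 pyrimidines within 5 bases of the start was thus present in 3 of 6 genes, beside 18.3% of the 32851 promoters in the table and 32 of 72 promoters of ribosomal protein genes (44.4%). Only the strand that reads like the RNA was searched, since the tract is a feature of the RNA. The annotated start is 1 position per gene, so a run that lies at another start of the same gene is not seen, and a match describes letters and no function.

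The Astro libraries held 18707844 to 20293538 counts and the PAP libraries 1829962 to 2980984. Across 14618 tested genes, which are not independent replicates, the correlation of log2 levels between animals was 0.935 to 0.951 in Astro and 0.51 to 0.539 in PAP. Between a PAP and an Astro library it was 0.44 to 0.516. Levels below are library-scaled counts with TMM factors applied (TMM-scaled CPM, or CPM), for which 3 counts corresponded to 0.152 to 0.176 CPM in Astro and to 0.991 to 1.55 CPM in PAP. P-values given for other genes measure the spread between these 3 animals. In such pooled RNA, fewer cells or processes of a kind and less RNA in each cannot be told apart.

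All 10 mRNAs were higher in every PAP library than in any Astro library. Together they took 0.165%, 0.144% and 0.174% of all counts in the Astro libraries of animals C1, C2 and C3, and 3.09%, 2.35% and 1.73% in their PAP libraries. The mean share was 0.161% ± 0.0151 in Astro and 2.39% ± 0.68 in PAP (SD, n = 3 each), and within an animal it differed by 1.56 to 2.92 percentage points. Eef1a1 alone made up 27.3% to 32.6% of the summed counts of the 10 genes in Astro and 35% to 38% in PAP. Genes whose PAP and Astro libraries did not overlap, with PAP higher, were 10.9% of the 14618 tested. The median log2 fold change of the 10 mRNAs, PAP over Astro, was 4.03, beside -0.53 over all tested genes.

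In the edgeR quasi-likelihood fit over all genes, 8 of the 10 lay past an adjusted p of 0.05 with PAP higher, where 5.92% of all tested genes did so and 15.4% did so with PAP lower. With the animal as a block, 7 lay past it, beside 0.876% of tested genes called higher and 0.0342% called lower. These counts restate the contrast that chose the genes and are no test of it.

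**Figure D1:**
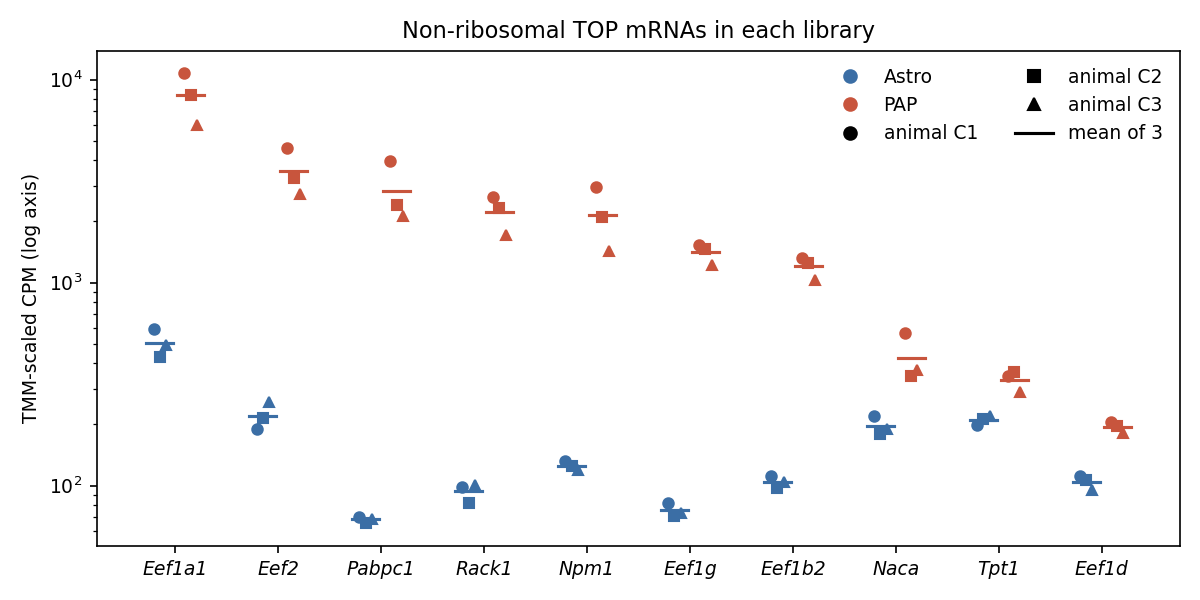
TMM-scaled CPM (log axis) of the 10 non-ribosomal TOP mRNAs in each of the 6 libraries. Blue symbols are Astro and red symbols PAP, the symbol shape gives the animal and the bar is the mean of 3 libraries. For each gene the 3 red symbols lie above the 3 blue ones, by a wide gap for 7 genes and a narrow one for Naca, Tpt1 and Eef1d, and the PAP symbol of animal C1 is the highest in 9 of the 10 genes.

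Of the factors that carry out elongation, Eef1a1 (ENSMUSG00000037742, chr9:78478449-78489151, coordinates in GRCm38 here and below) took the most counts of the 10 in every library. It stood at 588, 432 and 490 CPM in the Astro libraries of animals C1, C2 and C3 and at 10737, 8414 and 5977 CPM in their PAP libraries. By raw counts it was gene 1, 2 and 6 of all genes in the PAP libraries, and gene 219, 352 and 264 in the Astro libraries. The lowest PAP value was above the highest Astro value by more than the whole spread of either group. Its level was 503 ± 78.5 CPM in Astro and 8376 ± 2380 CPM in PAP (SD, n = 3 each), a log2 fold change of 4.06 ± 0.29 (SE). Within animals the PAP level was 18.3, 19.5 and 12.2 times the Astro level.

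Eef2 (ENSMUSG00000034994, chr10:81176631-81182498), the translocation factor, gave 191, 215 and 257 CPM in Astro and 4608, 3264 and 2719 CPM in PAP. The animals ran in opposite order in the 2 compartments, C1 being lowest in Astro and highest in PAP. Its ratio within an animal therefore spread from 10.6 in C3 to 24.1 in C1, around a log2 fold change of 4.00 ± 0.29 (SE). Eef1a1 and Eef2 kept a similar proportion to each other, with 3.07, 2.01 and 1.91 Eef1a1 counts per Eef2 count in Astro and 2.33, 2.58 and 2.2 in PAP, ranges that overlap.

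The 3 subunits of eEF1B did not share 1 difference. Eef1b2 (ENSMUSG00000025967, chr1:63176825-63180486), the catalytic beta subunit, gave 112, 96.9 and 104 CPM in Astro and 1325, 1252 and 1026 CPM in PAP, a log2 fold change of 3.53 ± 0.24 (SE). Eef1g (ENSMUSG00000071644, chr19:8967041-8978479), the gamma subunit that holds the complex together, gave 81.8, 71.1 and 73.3 CPM in Astro and 1531, 1467 and 1224 CPM in PAP, a log2 fold change of 4.22 ± 0.24 (SE). Eef1d (ENSMUSG00000055762, chr15:75894205-75909556), the other subunit with exchange activity, gave 112, 106 and 94.7 CPM in Astro and 206, 197 and 181 CPM in PAP, a log2 fold change of 0.90 ± 0.31 (SE). Its PAP libraries did not overlap the Astro ones, and its 3 ratios within animals, 1.84, 1.86 and 1.91, were the closest together of the 10 genes.

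Counts of 2 subunits in the same library need no scaling between libraries. Per Eef1d count there were 1, 0.913 and 1.09 Eef1b2 counts in Astro and 6.43, 6.34 and 5.68 in PAP. Likewise there were 0.731, 0.669 and 0.774 Eef1g counts per Eef1d count in Astro and 7.43, 7.43 and 6.77 in PAP. Eef1b2 and Eef1g differed far less from each other, with 1.37, 1.36 and 1.42 Eef1b2 counts per Eef1g count in Astro and 0.865, 0.853 and 0.838 in PAP. In each of these ratios the compartments do not overlap, and the animals of a compartment lie close together. The ratios use the same libraries that chose the genes and are a description of them.

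Pabpc1 (ENSMUSG00000022283, chr15:36595661-36609668), which coats poly(A) tails, had the largest ratio of the 10. It gave 70.3, 65.3 and 68.8 CPM in Astro and 3972, 2400 and 2135 CPM in PAP. The Astro libraries lay within a narrow band of 68.1 ± 2.58 CPM (SD, n = 3), whereas PAP stood at 2836 ± 993 CPM (SD, n = 3) with the library of C1 well above the others. The log2 fold change was 5.38 ± 0.34 (SE), and the ratios within animals were 56.5, 36.8 and 31.

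Rack1 (ENSMUSG00000020372, chr11:48800332-48806434), the ribosomal scaffold, gave 98.4, 82.1 and 101 CPM in Astro and 2627, 2340 and 1718 CPM in PAP. Its log2 fold change was 4.57 ± 0.27 (SE), the second largest of the 10, with ratios within animals of 26.7, 28.5 and 17. Rack1 is a subunit-like protein of the ribosome, and the Astro and PAP libraries were apart by more than either group's spread, as for the elongation factors.

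Npm1 (ENSMUSG00000057113, chr11:33152287-33163206), which acts in ribosome assembly in the nucleolus, gave 132, 125 and 120 CPM in Astro and 2939, 2115 and 1436 CPM in PAP. Its log2 fold change was 4.11 ± 0.33 (SE), and the PAP level in C1 was the highest and in C3 the lowest. Nucleolin (Ncl), another nucleolar protein, kept a similar proportion to it, with 1.04, 0.936 and 0.759 Npm1 counts per Ncl count in Astro and 0.822, 0.882 and 0.851 in PAP. These ranges overlap between the compartments.

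Naca and Tpt1 lay with Eef1d at the low end. Naca (ENSMUSG00000061315, chr10:128035575-128048637) gave 220, 179 and 191 CPM in Astro and 563, 347 and 369 CPM in PAP, a log2 fold change of 1.12 ± 0.30 (SE). Without the PAP library of C1 the value was 0.82. Its partner in the complex, Btf3, gave 168, 118 and 118 CPM in Astro and 213, 136 and 89.5 CPM in PAP, which overlap. Per Btf3 count there were 1.31, 1.52 and 1.61 Naca counts in Astro and 2.64, 2.56 and 4.12 in PAP.

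Tpt1 (ENSMUSG00000060126, chr14:75845093-75848525) gave 199, 212 and 220 CPM in Astro and 345, 362 and 288 CPM in PAP. It had the smallest difference of the 10, a log2 fold change of 0.66 ± 0.25 (SE), with ratios within animals of 1.74, 1.71 and 1.31. The means were 210 ± 10.7 CPM in Astro and 332 ± 38.7 CPM in PAP (SD, n = 3 each), and the lowest PAP library lay above the highest Astro library.

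Levels of different genes were compared per kilobase of annotated exon. In Astro the order was Eef1a1 with 202 ± 31.5 CPM per kilobase (SD, n = 3, as for all levels in this paragraph), Tpt1 with 88.3 ± 4.5, Eef2 with 66.5 ± 9.96, Npm1 with 47.1 ± 2.32 and Eef1b2 with 41.1 ± 2.98. Then came Eef1g with 29 ± 2.17, Naca with 28.9 ± 3.11, Rack1 with 18.4 ± 2.03, Eef1d with 16.1 ± 1.34 and Pabpc1 with 10.4 ± 0.395 CPM per kilobase. Of neighbours in this order, the libraries overlapped only for Eef1g with Naca and for Rack1 with Eef1d. In PAP the order was Eef1a1 with 3360 ± 955, Eef2 with 1062 ± 293, Npm1 with 812 ± 282, Eef1g with 541 ± 62.3 and Eef1b2 with 474 ± 61.6 CPM per kilobase. Rack1 with 435 ± 90.8 and Pabpc1 with 434 ± 152 followed, then Tpt1 with 140 ± 16.3, Naca with 62.6 ± 17.4 and Eef1d with 30 ± 1.99 CPM per kilobase. From Eef2 down to Pabpc1 the libraries of neighbours overlapped. Within each of the 3 PAP libraries, though, the order from Eef2 through Npm1, Eef1g and Eef1b2 to Rack1 was the same. Pabpc1, with 607, 367 and 326 CPM per kilobase, lay above Eef1g, Eef1b2 and Rack1 in C1 and below all of them in C2 and C3. Eef1a1 stood above that block of 6 genes, and Tpt1, Naca and Eef1d stood below it, each apart from its neighbour.

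The order depended on the length used. Per kilobase of the median coding transcript, a length chosen after seeing the data, Rack1 came to 1540 ± 321 CPM per kilobase in PAP (SD, n = 3), below only Eef1a1 with 4669 ± 1327 and Npm1 with 1843 ± 641 CPM per kilobase. The union of Rack1 exons covers 5119 bases and its median coding transcript 1447 bases. Under both lengths Eef1a1 was the highest in both compartments, Pabpc1 was the lowest in Astro, and Tpt1 was the second highest in Astro and the eighth in PAP.

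**Figure D2:**
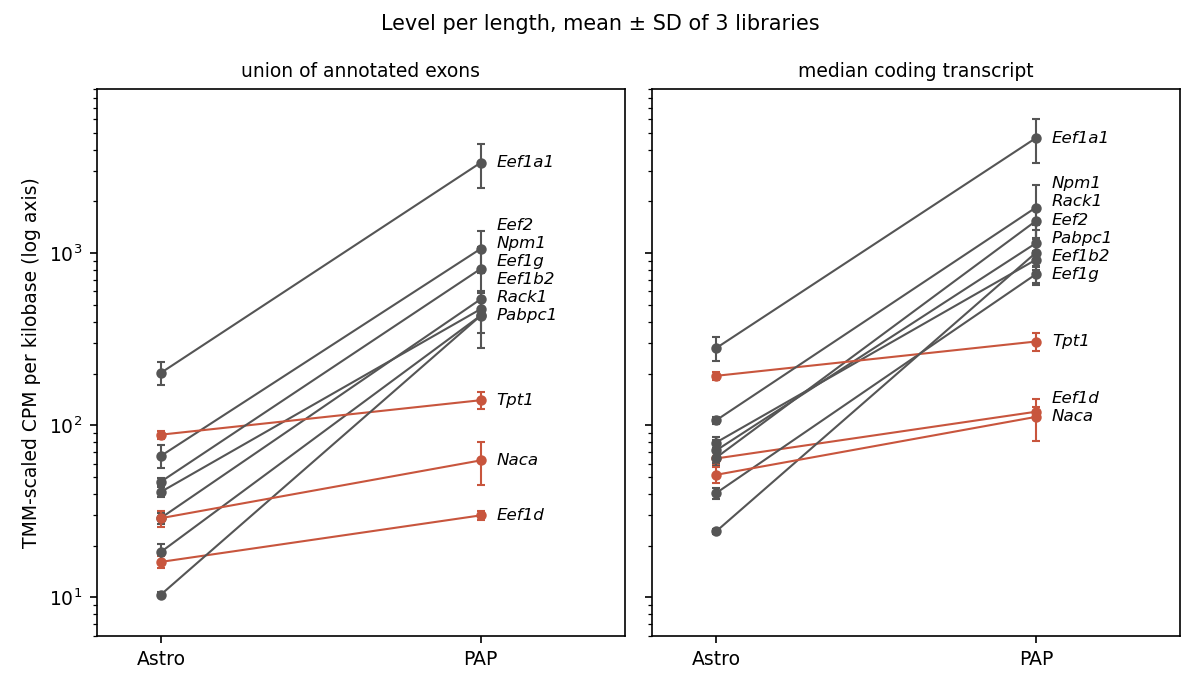
TMM-scaled CPM per kilobase (log axis, mean ± SD of 3 libraries) of the 10 genes in Astro and PAP, per kilobase of all annotated exons on the left and of the median coding transcript on the right. Lines join the values of 1 gene, and names, moved apart where they would overlap, stand beside the PAP values. The red lines of Tpt1, Naca and Eef1d are flatter than the grey lines of the other 7 genes, and Pabpc1, the lowest gene in Astro, has the steepest line.

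The animals were ordered alike in PAP for most of the genes. The PAP library of C1 was the highest of the 3 for 9 genes and that of C2 for Tpt1, and the library of C3 was the lowest for 9 genes and that of C2 for Naca. Summed over the 10 genes, PAP levels were 28854, 22159 and 17072 CPM in C1, C2 and C3, beside 1804, 1585 and 1718 CPM in Astro. Between animals the median coefficient of variation of the 10 genes was 7.94% in Astro and 24.2% in PAP. Over the 4287 tested genes with a mean of at least 50 CPM in Astro it was 13.9%, and over the 2087 with at least 100 CPM in PAP it was 45.5%. For the ribosomal protein genes the medians were 9.69% and 20.5%. Single genes ranged in PAP from 6.62% for Eef1d to 35% for Pabpc1.

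Ribosomal protein genes, the main body of the TOP family, took 0.823% to 0.919% of counts in Astro and 7.03% to 11.1% in PAP. There were 0.175 to 0.196 counts of the 10 genes per ribosomal protein count in Astro and 0.24 to 0.279 in PAP, without overlap. Of 82 ribosomal protein genes tested, 78 passed an adjusted p of 0.05 in the edgeR quasi-likelihood test with PAP higher (95.1%, beside 5.92% of all genes), and 54 did so with the animal as a block, beside 0.876% of all genes. Their median log2 fold change was 3.13, between that of Eef1b2 and that of Naca.

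The genes whose profile over the 6 libraries was most like the mean profile of the 10 were searched among 4358 other genes with a mean of at least 50 CPM. The measure was the root mean square difference of mean-centred log2 CPM. The nearest were Dctpp1, which encodes a nucleotide pyrophosphatase, and the ribosomal protein genes Rpl37a, Fau and Rpl38, each at 0.10, and Rps7 at 0.11. Dctpp1 gave 22.8, 23.4 and 23.9 CPM in Astro and 261, 196 and 196 CPM in PAP, and Rpl37a gave 125, 129 and 112 CPM and 1404, 1258 and 934 CPM. Of the 10 genes themselves, Eef1b2 was the nearest to their mean at 0.16, and Eef1d at 1.17 and Tpt1 at 1.30 were the farthest. With 6 libraries in 2 groups, this likeness is mainly a likeness in size of the compartment difference.

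The other translation genes were taken as 5 lists, 86 genes in all, of which 82 were tested. These lists too were drawn up with earlier results of these data known, so their counts describe them beside the shares of all tested genes. In the edgeR quasi-likelihood test over all genes, 17 of 82 passed an adjusted p of 0.05 with PAP higher (20.7%, beside 5.92% of all genes). With PAP lower 8 passed (9.76%, beside 15.4% of all genes). Their median log2 fold change was 0.20. With the animal as a block 2 passed, Eif4b and Ncl, both with PAP higher, where calls over all genes went from 5.92% to 0.876%. Without any 1 of the Astro libraries 3 passed, Eif3k, Eif4b and Ncl in each case, and calls higher over all genes went from 865 to between 114 and 135. Apart from those of Eif4b, Ncl and, in part, Eif3k, the calls below were thus made only without the block and with all 3 Astro libraries.

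**Figure D3:**
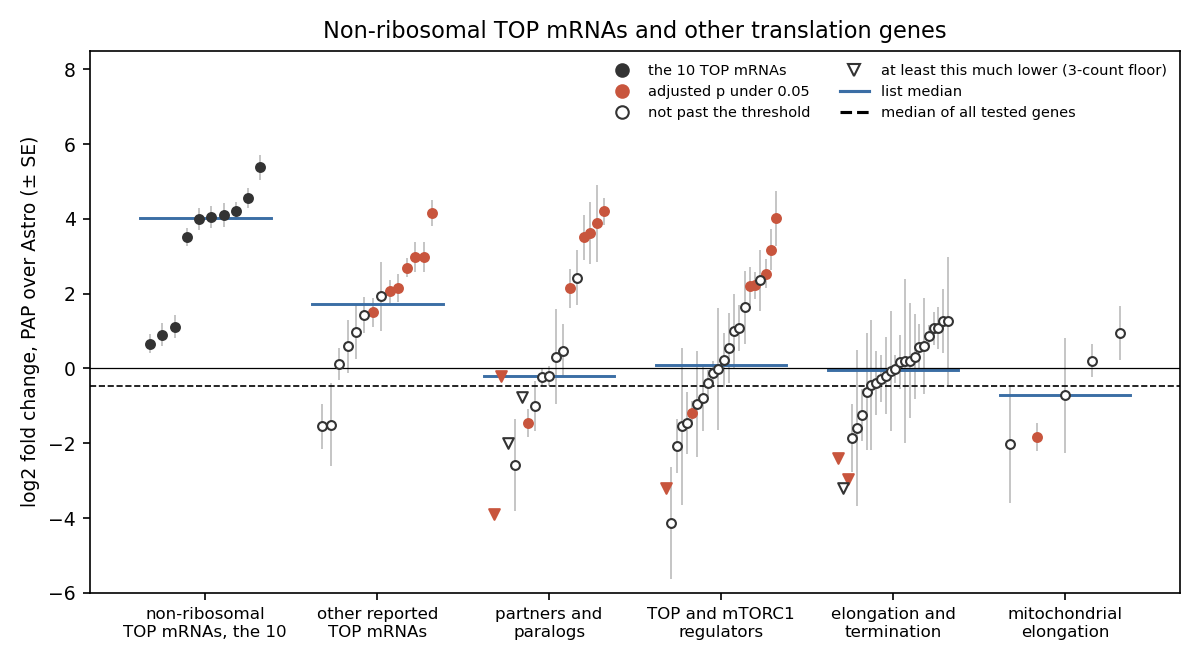
Log2 fold change, PAP over Astro (± SE), of each gene in 6 lists from the fit over all genes, drawn for the 82 tested translation genes and the 10 TOP mRNAs. Red marks genes with an adjusted p under 0.05, white those not past it and black the 10 TOP mRNAs, for which no test is given. Triangles are bounds for genes at or under 3 counts in each PAP library, the blue bars are list medians and the dashed line at -0.46 is the median of all tested genes, both with such genes at their bound. The medians are 4.03 for the 10 TOP mRNAs, 1.72 for the other reported TOP mRNAs and 0.10 or lower for the remaining 4 lists.

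Of 14 further mRNAs reported to carry a TOP tract, 7 rose in PAP (50%, beside 5.92% of all genes) and the other 7 did not pass, with a median log2 fold change of 1.72. Eif4b, a cofactor of the helicase that opens the mRNA for initiation, gave 66.1, 58 and 89.8 CPM in Astro and 1696, 1192 and 945 CPM in PAP, a log2 fold change of 4.16 ± 0.36 (SE, edgeR adjusted p = 0.0029, and 0.0204 with the block). Eif3e, a subunit of the initiation factor eIF3, rose by a log2 fold change of 2.98 ± 0.40 (SE, edgeR adjusted p = 0.0146, and 0.0674 with the block). Hnrnpa1, an RNA-binding splicing protein, gave 2.98 ± 0.40 (SE, edgeR adjusted p = 0.0152, and 0.109 with the block). The other genes that rose were Eif3f, Eif3h, Eif3k and Nap1l1. Without overlap, PAP was higher in 10 of the 14, beside 10.9% of all genes, and lower in 2, beside 5138 of the 14618 genes. Among those not past the threshold, Eif2s3x, Eif3l and Nsa2 were the higher ones. Their log2 fold changes were 1.93 ± 0.93, 1.42 ± 0.48 and 0.98 ± 0.73 (SE). Eif4a2, a helicase of initiation, and Vim, which encodes vimentin, were the 2 lower ones, at -1.55 ± 0.60 and -1.50 ± 1.10 (SE). DESeq2 called 10 of the 14 higher and Eif4a2 lower. The genes named for their lack of overlap were picked after their values were seen. Btf3, whose mRNA is also reported as TOP, had a log2 fold change of 0.12 ± 0.44 (SE, edgeR adjusted p = 0.904), and its sign changed in 3 of 16 alternatives.

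Of 24 elongation and termination factors outside the 10, Gspt2 and Pelo fell (8.33%, beside 15.4% of all genes) and the other 22 did not pass, with a median log2 fold change of -0.03. Without overlap, PAP was higher in 2 of the 24, beside 10.9% of all genes, and lower in 5, beside 5138 of the 14618 genes. The 5 are Gspt2, Pelo, Eef1e1, Eef1akmt1 and Mettl13, and the 2 are Eif5a and Dph5, named after their values were seen. Eif5a, a factor that helps ribosomes through difficult stretches, gave 553 ± 18.7 CPM in Astro and 1017 ± 295 CPM in PAP (SD, n = 3 each), a log2 fold change of 0.88 ± 0.28 (SE, edgeR adjusted p = 0.0713). Dph5, an enzyme that modifies eEF2, gave 44.6 ± 1.46 and 94 ± 17.6 CPM (SD, n = 3 each), a log2 fold change of 1.07 ± 0.45 (SE, edgeR adjusted p = 0.165). These values are near those of Eef1d and Tpt1, and DESeq2 called both genes higher. Eef1a2, the paralog of Eef1a1 known from neurons and muscle, gave 4.73, 4.58 and 7.92 CPM in Astro and 18.9, 16.5 and 6.28 CPM in PAP, which overlap. Its log2 fold change was 1.27 ± 0.86 (SE, edgeR adjusted p = 0.404), and there were 61.9 to 124 Eef1a1 counts per Eef1a2 count in Astro and 510 to 952 in PAP. Eef2k, the kinase that inactivates eEF2, gave 29.8, 29.3 and 18.6 CPM in Astro and 11.7, 0 and 38.7 CPM in PAP, with a log2 fold change of -0.62 ± 1.57 (SE, edgeR adjusted p = 0.858). Its PAP values lie on both sides of the Astro values. Without the PAP library of C2 its log2 fold change was -0.10, and without that of C3 it was -2.20.

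Gspt2, a release factor of termination, had 1, 0 and 2 counts in PAP and a mean of 10.5 CPM in Astro. Against a floor of 3 counts in each PAP library, its PAP level was at least 7.72-fold lower (adjusted p = 0.0362 in edgeR, and 0.212 with the block). It passed in 7 of the 14 alternatives in which it was tested. Pelo, which rescues stalled ribosomes, had 1, 0 and 0 counts in PAP and was at least 5.27-fold lower by the same floor (edgeR adjusted p = 0.0262, and 0.206 with the block). Of 5 mitochondrial elongation factors, Gfm1 fell (20%, beside 15.4% of all genes), from 191, 152 and 173 CPM to 50.5, 47.9 and 45.3 CPM, a log2 fold change of -1.84 ± 0.37 (SE, edgeR adjusted p = 0.0208, and 0.206 with the block). The list's median was -0.72, and its other 4 genes did not pass.

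Of 17 partners and paralogs of the 10, Vars, Pabpc4, Pabpn1, Npm3 and Ncl rose (29.4%, beside 5.92% of all genes). Gnb2, Gnb4 and Pabpc5 fell, a share of 17.6% that is near the 15.4% of all genes, and the median log2 fold change was -0.21, or -0.20 with genes at their bound. Ncl gave 127, 133 and 158 CPM in Astro and 3574, 2399 and 1689 CPM in PAP, a log2 fold change of 4.20 ± 0.35 (SE, edgeR adjusted p = 0.00274, and 0.0182 with the block). Npm3, a smaller relative of Npm1, rose by 3.88 ± 1.02 (log2, SE, edgeR adjusted p = 0.0394, and 0.258 with the block) from 7 to 39 counts in each Astro library.

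The poly(A)-binding paralogs differed from each other. Pabpc4 gave 3.87, 6.92 and 5.89 CPM in Astro and 58.2, 29.9 and 119 CPM in PAP, a log2 fold change of 3.63 ± 0.83 (SE, edgeR adjusted p = 0.0256, and 0.206 with the block). Pabpc5 had no count in PAP and 21 to 33 counts in each Astro library, so its PAP level was at least 1.14-fold lower (adjusted p = 0.0208 in edgeR, and 0.206 with the block). Among the G protein beta subunits, which share the propeller fold of Rack1, Gnb4 had no count in PAP and was at least 14.8-fold lower (edgeR adjusted p = 0.0208, and 0.206 with the block). Gnb2 fell from 254, 201 and 240 CPM to 91.3, 106 and 55.8 CPM, a log2 fold change of -1.46 ± 0.38 (SE, edgeR adjusted p = 0.0374, and 0.206 with the block). It passed in 6 of 16 alternatives and was lost with DESeq2 size factors and with library size alone. The PAP and Astro libraries of Gnb2 did not overlap, opposite in direction to those of Rack1. Those of Gnb1 overlapped, with 471, 417 and 483 CPM in Astro and 416, 325 and 426 CPM in PAP (log2 fold change -0.23 ± 0.24, SE).

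Of 22 regulators of TOP mRNAs and members of the mTORC1 pathway, Larp1, Larp4, Larp4b, Eif4ebp1 and Eif4ebp2 rose (22.7%, beside 5.92% of all genes). Cnbp and Mtor fell, a share of 9.09% that is below the 15.4% of all genes, and the median log2 fold change was 0.10. Larp1, which binds the cap and tract of TOP mRNAs, gave 36.5, 56.6 and 49.6 CPM in Astro and 356, 130 and 173 CPM in PAP, a log2 fold change of 2.21 ± 0.51 (SE, edgeR adjusted p = 0.0265, and 0.206 with the block). Its relatives Larp4 and Larp4b bind poly(A) and AU-rich RNA. They rose by log2 fold changes of 3.18 ± 0.55 and 2.54 ± 0.40 (SE, edgeR adjusted p = 0.0208 for both, and 0.199 and 0.167 with the block). Without the PAP library of C1 these values were 2.56 and 2.44. Eif4ebp2, a repressor of the cap-binding factor and a target of mTORC1, gave 13.9, 13.9 and 32 CPM in Astro and 579, 135 and 257 CPM in PAP, a log2 fold change of 4.02 ± 0.73 (SE, edgeR adjusted p = 0.0208, and 0.12 with the block).

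Cnbp, a zinc finger protein reported to bind the 5′ ends of TOP mRNAs, gave 1296, 1007 and 972 CPM in Astro and 667, 332 and 443 CPM in PAP. Its log2 fold change was -1.18 ± 0.32 (SE, edgeR adjusted p = 0.0434, and 0.206 with the block), past the threshold in 5 of 16 alternatives. Mtor, the kinase itself, had 184 to 286 counts in each Astro library and 2, 1 and 1 counts in PAP. Its PAP level was at least 9.1-fold lower (adjusted p = 0.021 in edgeR, and 0.232 with the block). For Gspt2, Pelo, Gnb4, Pabpc5 and Mtor the PAP depth sets the bound, so a larger difference would not be visible.

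Counting can divide reads among near-identical genes. At 90% identity or more over at least 300 bases, Eef1a1 had 15 such genes in the annotation, Npm1 9, Eef1g 5, Tpt1 4, Naca and Eef2 3 each, Eef1d and Pabpc1 2 each, and Rack1 and Eef1b2 0. For Eef1g, 3 of these genes are in the files and held 1.98% to 3.42% of its counts in Astro and 9.64% to 11.1% in PAP. For Eef1a1, 8 are in the files and held at most 0.32% of its counts in any library. How reads with several equal placements were treated is not given in the sources used here, and values of the 8 genes with copies are uncertain to that extent.

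Overlapping genes add a similar limit. The annotated miRNA gene Gm26377 lies inside Eef1a1 on the same strand and held 1379, 1202 and 1195 counts in Astro and 3136, 2932 and 2327 in PAP. Naprt overlaps the end of Eef1d on the same strand, Ndufs1 the start of Eef1b2 and Trim41 the end of Rack1 on the opposite strand. The shared stretches are chr1:63176825-63176833 for Ndufs1 and Eef1b2, chr11:48806404-48806434 for Trim41 and Rack1, and chr15:75894205-75894481 for Naprt and Eef1d. The strand setting of the counting is not given, so reads of a gene and its antisense partner cannot be told apart in those stretches. Reads outside the stretches are not affected, and the counts that follow are of whole genes. In Astro, Ndufs1 had 2961, 2239 and 3117 counts, more than the 2084, 1651 and 2042 of Eef1b2, and in PAP it had 140, 84 and 13 beside 2428 to 3105. Naprt had 1452, 896 and 1107 counts in Astro, beside 1809 to 2081 of Eef1d, and 0, 66 and 83 in PAP, beside 383 to 547. Trim41 had 63 to 67 counts in Astro and 25, 8 and 91 in PAP, where Rack1 had 4539 to 5199.

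Markers of cell types moved with the compartments too. The 18 astrocyte markers were present in both, with more than 3 counts for all 18 in each Astro library and for 17, 18 and 18 in PAP, where Fgfr3 was at 0 in C1. Their summed level was 37627 to 51809 CPM in Astro and 6170, 13521 and 24941 CPM in the PAP libraries of C1, C2 and C3. Among the PAP libraries it was thus lowest where the sum of the 10 TOP mRNAs was highest, and highest where that sum was lowest. The 12 B lineage markers summed to 41.5 to 65.6 CPM in Astro and to 5858, 3573 and 2784 CPM in PAP. Most of that came from Igkc with 2618, 1741 and 1251 CPM and Jchain with 2515, 1202 and 1098 CPM. In PAP, Mzb1 gave 538, 453 and 354 CPM, Ms4a1 66.3, 145 and 34.4, Sdc1 49.5, 18.6 and 42.6 and Cd79b 41.3, 13.9 and 1.98. For each of these genes every PAP library lay above every Astro library, where 10.9% of all tested genes did so. The libraries of Prdm1 overlapped, Pax5 had no count in any library, and Cd79a, Ighm and Cd22 had none in PAP. Whether this signal has a part in the difference of the TOP mRNAs was not tested.

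The summed levels of the other lists mostly overlapped between compartments or stayed low. The 14 neuron markers summed to 1095 to 1854 CPM in Astro and 561 to 1424 in PAP, and single genes of the list went in both directions. Every PAP library lay above every Astro library for Syt1, Camk2a and Grin1, where 10.9% of all tested genes did so. Every PAP library lay below for Snap25, Tubb3, Gad2 and Map2, where 5138 of the 14618 tested genes did so. Of these neuron markers, Syt1 rose from 67.1, 86.4 and 113 CPM to 177, 277 and 248 CPM (edgeR adjusted p = 0.0414, and 0.206 with the block). Snap25 fell (log2 fold change -2.22 ± 0.54, SE, edgeR adjusted p = 0.0296, and 0.127 with the block). The 8 oligodendrocyte markers summed to 797 to 858 CPM in Astro and 498 to 1015 CPM in PAP. The 10 microglia markers gave 44.5 to 96.6 CPM in Astro and 32 to 78.6 in PAP, where Cx3cr1, P2ry12, Tmem119 and Aif1 had no count. The 10 endothelial markers gave 7.41 to 13.7 CPM in Astro and 15.5 to 24.5 in PAP, with Cldn5, Cdh5, Vwf, Esam and Slco1a4 at 0 in PAP. The 4 pericyte markers gave 17.9 to 38.8 CPM in Astro and at most 1.03 in PAP. The 5 erythroid markers gave 12.7 to 22.2 CPM in Astro and 456, 65.5 and 2.64 in PAP, and the 6 ependymal and choroid plexus markers 2442 to 19748 and 640 to 6625 CPM. Their part in the values of the 10 genes was not tested.

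**Figure D4:**
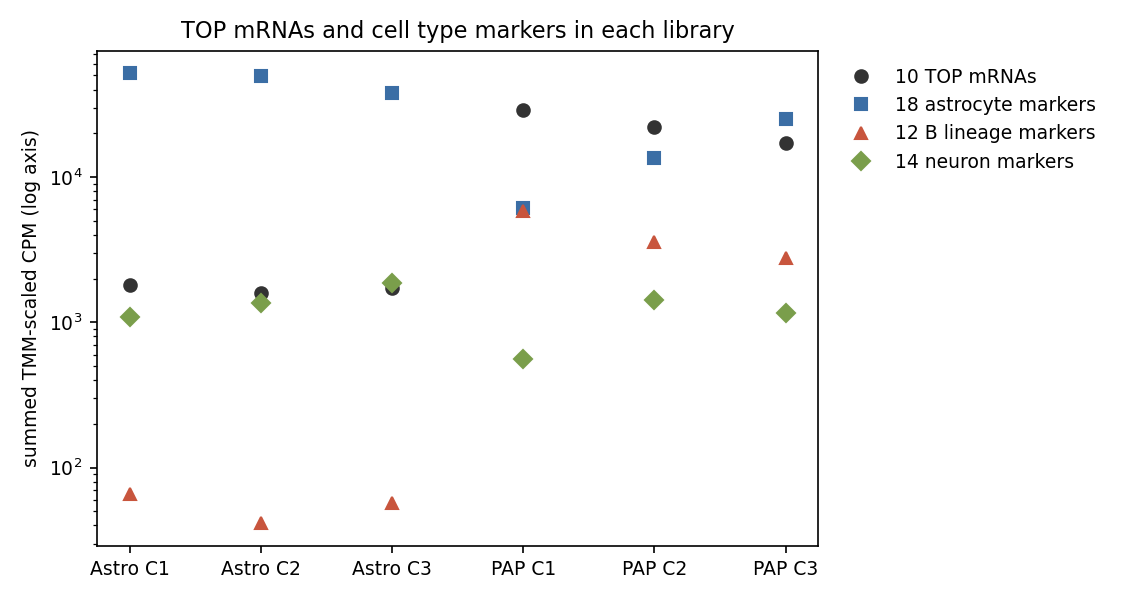
Summed TMM-scaled CPM (log axis) of the 10 TOP mRNAs and of the astrocyte, B lineage and neuron marker lists in each of the 6 libraries. The black points of the TOP mRNAs run from 1585 to 1804 CPM in Astro and from 17072 to 28854 CPM in PAP. In PAP the black points and the red B lineage points are highest in C1 and lowest in C3, and the blue astrocyte points the reverse.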

How the data were processed

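Each of the 48 files gives an Ensembl gene ID and a count per gene, per the file headers; the deposited values are whole numbers with no scaling by the authors. The submitters' processing notes name bcl2fastq 2.18.0.12, Trim Galore 0.4.1, STAR 2.5.2b, SAMtools and HTSeq 0.5.3 with build mm10. Per the labels' protocols, 10 ng of RNA was amplified (SMART-Seq v4) and made into Nextera XT libraries. Molecular identifiers, strand and multiple placements are not given in the sources used here.

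For each animal and compartment, 8 technical replicates were summed, giving n = 3 libraries per group. Symbols and positions came from GENCODE M21 (GRCm38), which held 47224 of 47643 IDs (99.12%). PAP was compared with Astro in edgeR 4.0.16 (R 4.3.3): filterByExpr with a minimum count of 10, TMM scaling, quasi-likelihood test on group alone, Benjamini-Hochberg adjustment over 14618 genes and a threshold of 0.05. The script was tested on simulated data. Near-identical copies were found with blastn 2.17.0.

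The sample titles give each Astro and PAP library a code, C1 to C3, and libraries that share it were taken as 1 animal. The deviations of same-animal libraries from their group means correlated at -0.025 to 0.0326 (mean 0.00893), and those of different animals at -0.0519 to 0.0304 (mean -0.00445). These ranges overlap. The fit with the animal as a block is given where it changes a call. Alternatives were DESeq2 1.42.0, limma 3.58.1 voom, other scalings, filters and depth, technical replicates 1 to 4 or 5 to 8 alone and leaving out each library.

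The 10 genes and all lists were chosen with earlier results of these data known. Genes named are the 10, the called genes of each list (if over 6, the 3 largest in each direction), 8 direct partners and paralogs, and the 5 nearest profiles. Other genes are named where a count of 7 or fewer is spelled out. The values of 1 marker gene are not reported here. Floors of 3 counts cover counting error only.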

Additional observations from a re-analysis of the deposited data

How the results depend on the processing

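Each of the 10 TOP mRNAs had a positive log2 fold change in all 16 alternatives to the fit. In these, 7 to 10 of them lay past the threshold, beside 0.876% to 11.5% of all genes called higher. DESeq2 gave 10, beside 11.5%, and the fit with the animal as a block gave 7, beside 0.876%. These refits use the libraries that chose the genes, so they show how the values depend on the processing and test nothing. Naca left the called genes in 8 of the 16 and Eef1d and Tpt1 joined them in 2 and 1. Their mean difference in share of counts, 2.23 percentage points, was 1.88 to 2.56 when 1 animal was left out. The scaling moved the median log2 fold change of all genes from -0.53 to -0.46 with DESeq2 size factors and to -0.37 with library size alone, and that of the 10 from 4.03 to 4.10 and 4.19. The start-site run within 5 bases, held by 3 of 6 genes, was held by 2 when it had to lie within 2 bases or span 6 pyrimidines after the C, and by 4 anywhere in the window, a setting chosen after seeing the data.

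For the 82 other translation genes, the 17 called higher became 2 with the animal as a replicate block (16 at an unadjusted p under 0.05), and 3 to 21 when 1 library was left out. They were 3 without each of the Astro libraries (17 to 19 unadjusted). Calls higher over all genes went from 865 to 128 and to 114 to 135 in these fits. The 8 called lower became 14 in DESeq2, 3 at equal depth, 3 when a gene needed 100 counts on average, 4 without a filter on low counts and 0 with the replicate block, where 8 had an unadjusted p under 0.05 in edgeR. Leaving out 1 library gave 0 to 11, with 0 without each Astro library, where 8 to 9 had an unadjusted p under 0.05. Calls lower over all genes went from 2250 to 3456 in DESeq2, 965 of 11212 at equal depth, 826 of 10084 at 100 counts, 1549 of 23924 without the filter, 5 with the block and 1 to 5 without an Astro library. Voom with a variance weight per group gave 14 higher and 8 lower. The cause of these differences was not tested. The block changed no call of the 10 other than that of Naca. Genes at or under 3 counts in PAP are limited by the depth of those libraries.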
